A study of Mus musculus with 12 samples.

Results

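Alginate oligosaccharide given after busulfan was compared with busulfan alone in mouse kidney, by RNA sequencing of 3 libraries on each side, which are 6 of the 12 libraries of the series and were chosen by their labels. No gene passed edgeR's or limma's test between these groups, while DESeq2 called 24. For 8 of the 12 genes that passed the test for busulfan, the groups with and without the oligosaccharide overlapped, with Ccng1, cyclin G1, at 579 to 623 CPM against 600.4 to 706 CPM with busulfan alone and 263 to 325 CPM in kidneys without busulfan. The groups did not overlap for 8.39% of all genes, but these same libraries chose the 12, so that the shares cannot be compared. Cdkn1a, the cell cycle inhibitor p21, was lower in each library with the oligosaccharide than in any with busulfan alone, at 9.91 to 23.7 CPM against 25.5 to 36.9 CPM, without passing the test. Of 9 urothelial genes 7 were lower with the oligosaccharide and none was called by edgeR, though low members could enter the test through high busulfan libraries. Genes of the circadian clock stood far from their level elsewhere in 2 of the 3 libraries with the oligosaccharide.

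The busulfan group received busulfan once at 40 mg/kg, and the other side of the comparison received the same dose of busulfan and then alginate oligosaccharide (AOS) at 10 mg/kg for 5 weeks. The remaining groups of 3 libraries each are a control with neither agent and a group with AOS at 10 mg/kg for 5 weeks and no busulfan. The strain is written as IRC in the labels. Their tissue field reads cells, but their titles and protocol name kidney. They give no age, and they do not say that the libraries came from separate animals, so that p-values measure the spread between these libraries, which may be technical.

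Busulfan is an alkylating drug that crosslinks DNA and is used to empty the bone marrow or the germ line. DNA damage stabilizes the transcription factor p53, whose targets halt the cell cycle, restrain growth signals or start cell death. AOS are short sugar chains cut from alginate, a polymer of brown seaweed. In the kidney, most RNA comes from proximal tubule cells, which reabsorb filtered solutes.

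Levels are given as normalized CPM, read counts scaled to a common library size, for replicates 1, 2 and 3 in this order, and differences as log2 fold changes of busulfan plus AOS over busulfan with their standard error (SE). The libraries held 13875942 to 15329347 estimated reads. A count of 0 leaves room for at most 0.196 to 0.216 CPM, by counting error only. Proximal tubule markers led all libraries, with Kap, an androgen-regulated protein of that segment, at 19006 to 38388 CPM in the 6 compared libraries. Busulfan replicate 3 held adrenal transcripts, replicate 3 of busulfan plus AOS held liver transcripts, and replicate 1 of busulfan plus AOS held high levels of immediate early and heat shock genes, each with values where it touches a result. In bulk tissue, fewer cells of a type and less RNA per cell cannot be told apart.

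Of 14428 genes tested, the quasi-likelihood test of edgeR, with p adjusted by Benjamini-Hochberg, called 0 (0.0%), and limma with voom called 0 too. The lowest adjusted p was 0.477, shared by 354 genes. An unadjusted p under 0.05 was found for 1254 genes (8.69%), of which 659 were higher (4.57%) and 595 lower (4.12%) with AOS. DESeq2 called 24 genes (0.166%), 16 higher and 8 lower. The 3 libraries of busulfan plus AOS lay wholly above the 3 of busulfan for 606 genes (4.2%) and wholly below for 605 (4.19%). The count of calls rested on single libraries, at 26 without replicate 1 of busulfan plus AOS (0.177% of 14708 genes), 3 without busulfan replicate 1 and 1 without busulfan replicate 3. Other comparisons in the same model called few genes, with 0 when AOS was set against control (0.0%), 6 for busulfan over control (0.0416%) and 10 for both agents over AOS alone (0.0693%). The test of whether AOS acted differently with and without busulfan called 0 genes.

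**Figure D1:**
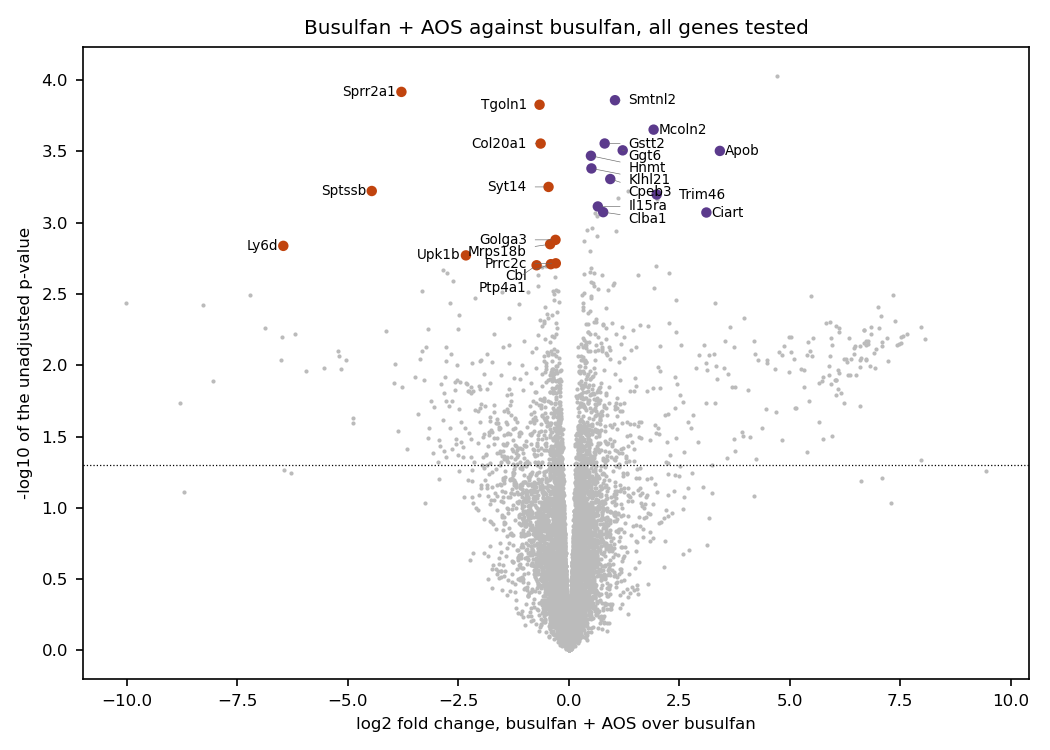
Log2 fold change of busulfan plus AOS over busulfan (x) against the -log10 of the unadjusted p-value (y) for each of 14428 genes, with the 12 leading genes of each direction labelled, purple where higher and orange where lower, and a dotted line at a p of 0.05. The labelled genes of smallest p sit above the cloud, yet 0 genes passed after adjustment, and the points far to the right include the hepatocyte genes, whose median is 6.12.

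The genes of lowest p among those with a symbol and a mean of at least 1 CPM in either group were 12 in each direction, and none of these 24 passed edgeR's test (adjusted p 0.477). The 3 libraries of each group did not overlap for any of the 24, against 8.39% of all genes, and DESeq2 called 17 of them. As p in these same libraries chose the 24, their separation and the DESeq2 calls are descriptions and no support. Between AOS alone and control, a comparison that shares no library with this one, 13 of the 24 differed in the same direction, 9 of the 12 higher genes and 4 of the 12 lower genes. The lowest adjusted p of the interaction among the 24 was 0.292.

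Smtnl2, a smoothelin-like protein on chromosome 11 from 72389163 to 72411713 of the mouse assembly GRCm38.p6, measured 8.91, 9.79 and 8.65 CPM with busulfan and 17.0, 23.4 and 16.1 CPM with busulfan and AOS. The AOS libraries were all higher, with a log2 fold change of 1.05 ± 0.18 and a DESeq2 adjusted p of 0.0011, and control and AOS alone lay at 11.9 to 17.7 CPM, above busulfan and partly within the range of both agents. Mcoln2, a cation channel of endolysosomes on chromosome 3 from 146149796 to 146195514, measured 0.414, 0.280 and 0.301 CPM with busulfan and 1.18, 1.49 and 1.16 CPM with AOS added, a difference of 1.92 ± 0.35 at the level of a few reads. AOS alone was also higher than control for Mcoln2, by 0.89 ± 0.33. Ggt6, a member of the gamma-glutamyltransferase family, measured 6.15, 7.34 and 4.87 CPM against 10.7, 15.6 and 16.5 CPM, a difference of 1.22 ± 0.23. All 3 AOS libraries were above all 3 busulfan libraries, and AOS alone was above control by 0.45 ± 0.23.

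Gstt2, a glutathione transferase on chromosome 10 from 75831842 to 75837419 whose reads may be shared with close paralogs, measured 112, 118 and 94.9 CPM with busulfan and 144, 223 and 203 CPM with AOS, a difference of 0.81 ± 0.15. Cpeb3, which binds the ends of messenger RNAs and restrains their translation, measured 31.7, 39.0 and 38.2 CPM against 46.4, 81.4 and 81.0 CPM, a difference of 0.94 ± 0.19. Trim46, a microtubule-associated protein known from neurons, measured 1.38, 1.26 and 1.26 CPM against 2.35, 6.37 and 6.84 CPM, a difference of 1.99 ± 0.42. In each of these genes, replicates 2 and 3 of busulfan plus AOS were the highest of the 12 libraries and replicate 1 was nearer to the busulfan libraries. Without replicate 1 they passed edgeR's test, at adjusted p of 0.017 for Gstt2, 0.011 for Cpeb3 and 0.029 for Trim46. As replicate 1 was the library nearest to busulfan, passing without it is a description and no support. Control and AOS alone held Cpeb3 at 39.6 to 48.9 CPM.

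Apob, the structural protein of lipid-carrying lipoproteins on chromosome 12 from 7977629 to 8016839, measured 127, 52.7 and 37.4 CPM with busulfan and 1121, 168 and 1031 CPM with AOS, a log2 fold change of 3.42 ± 0.65. Replicates 1 and 3 with AOS stood far above the rest, and control and AOS alone lay at 70.0 to 123 CPM. The summed hepatocyte markers were 224, 39.3 and 68.9 CPM with busulfan and 232, 87.7 and 22376 CPM with AOS, and the difference in Apob was 3.16 without the last of these libraries. Hnmt, which inactivates histamine, measured 14.2, 12.6 and 14.3 CPM against 18.6, 20.5 and 19.1 CPM, a difference of 0.50 ± 0.10, and stayed at 13.7 to 15.5 CPM in the 6 libraries without busulfan. Il15ra, a receptor subunit for interleukin 15, differed by 0.66 ± 0.14, Klhl21, an adaptor of a ubiquitin ligase, by 0.51 ± 0.10, and Clba1, a clathrin-binding protein, by 0.78 ± 0.17. For these last 3 genes the busulfan libraries were below control. They lay at 6.92 to 8.08 CPM for Il15ra, 16.6 to 18.9 CPM for Klhl21 and 12.9 to 13.8 CPM for Clba1. Control lay at 9.52 to 10.8, 19.7 to 21.4 and 18.0 to 26.2 CPM. AOS alone overlapped busulfan for Il15ra, at 7.26 to 9.06 CPM. It was above busulfan for Klhl21, at 20.7 to 22.7 CPM, and for Clba1, at 18.1 to 20.8 CPM.

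Among the lower genes, Tgoln1, a membrane protein that cycles through the trans-Golgi network, had the lowest DESeq2 adjusted p of all genes, 0.00034. It measured 491, 464 and 455 CPM with busulfan and 309, 253 and 330 CPM with AOS, a log2 fold change of -0.66 ± 0.11, and 354 to 446 CPM in the libraries without busulfan. A near-identical paralog may share its reads. Golga3, a golgin of the Golgi apparatus, was lower by less, at 48.0, 47.8 and 49.4 CPM against 41.5, 35.4 and 41.1 CPM, a difference of -0.30 ± 0.07. Syt14, related to the synaptotagmins of membrane traffic, measured 37.4, 42.1 and 33.5 CPM against 26.4, 28.4 and 27.4 CPM, a difference of -0.46 ± 0.09. For each of these 3 genes the AOS libraries were all below the busulfan libraries, and AOS alone differed from control by -0.13 ± 0.11 for Tgoln1, 0.11 ± 0.07 for Golga3 and 0.12 ± 0.09 for Syt14.

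Col20a1, a collagen chain of low level, measured 9.53, 10.98 and 12.4 CPM with busulfan and 7.199, 7.29 and 6.70 CPM with AOS, a difference of -0.64 ± 0.12 with counts that were not whole in any library. Cbl, a ubiquitin ligase for growth factor receptors, differed by -0.41 ± 0.10 and was narrow within busulfan, at 45.5 to 47.8 CPM, against 32.7 to 39.2 CPM. Ptp4a1, a phosphatase linked to cell growth, differed by -0.73 ± 0.18, or by -0.45 without busulfan replicate 3, its highest library at 114 CPM. Mrps18b, a protein of the mitochondrial ribosome, differed by -0.42 ± 0.10 and Prrc2c, a large RNA-binding protein, by -0.29 ± 0.07.

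Whether AOS altered the busulfan response was examined in the 12 genes that passed the test for busulfan, either against control or against AOS alone. The choice used the libraries of both groups, so that their level above the libraries without busulfan is a description. For 8 of the 12, the groups with and without AOS overlapped and the 95% interval of the log2 difference included 0. For 10 of the 12, the lowest library of busulfan plus AOS was above every library without busulfan. None of the 12 passed edgeR's test for AOS.

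Ccng1, a p53 target on chromosome 11 from 40748552 to 40755309, measured 627, 706 and 600.4 CPM with busulfan and 623, 579 and 623 CPM with AOS. The values overlapped, and the difference was -0.08 ± 0.09 with a 95% interval from -0.28 to 0.12. Eda2r, a p53-induced receptor of the tumour necrosis factor receptor family, measured 5.80, 9.30 and 10.5 CPM against 10.0, 6.72 and 7.13 CPM, a difference of -0.10 ± 0.29 with an interval from -0.73 to 0.54. Phlda3, which restrains the kinase Akt, measured 6.56, 11.7 and 13.5 CPM against 12.04, 9.20 and 6.62 CPM, a difference of -0.19 ± 0.30. In both genes the values with AOS lay inside the busulfan range, and the libraries without busulfan were all at or below 1.16 CPM.

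Exoc4, a subunit of the exocyst that tethers secretory vesicles, measured 51.5, 59.0 and 61.0 CPM against 51.4, 55.8 and 61.2 CPM, and its interval was narrow, from -0.22 to 0.17. Zmat3, an RNA-binding p53 target, differed by -0.13 ± 0.11, and Mgmt, which removes alkyl groups from guanine, by 0.13 ± 0.18. Mgmt measured 8.49, 9.72 and 8.35 CPM with busulfan and 8.79, 9.41 and 10.8 CPM with AOS, against 2.97 to 5.53 CPM without busulfan. Inka2, an inhibitor of the kinase Pak4, differed by 0.01 ± 0.34 and Plcd4, a phospholipase C, by 0.11 ± 0.29. Their intervals were wide, from -0.73 to 0.75 for Inka2 and from -0.52 to 0.75 for Plcd4.

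The groups did not overlap for 4 of the 12 genes, against 8.39% of all genes. As these same libraries chose the 12, an extreme value in either group could admit a gene, and the shares cannot be compared. Cdkn1a, on chromosome 17 from 29090979 to 29100722, measured 25.5, 36.9 and 33.1 CPM with busulfan and 23.7, 9.91 and 13.98 CPM with AOS. All 3 AOS libraries were below the busulfan libraries and above the 3.18 to 5.75 CPM of the libraries without busulfan, and replicate 1 lay close to the lowest busulfan library. The log2 fold change was -1.004 ± 0.30 with an unadjusted p of 0.0068 and an adjusted p of 0.477, and it was -1.42 with an adjusted p of 0.087 without replicate 1 of busulfan plus AOS. Its reads were shared out in every library, so that no count was whole. Asxl3, a chromatin protein that was low with busulfan, was lower still with AOS, at 7.25, 7.62 and 6.91 CPM against 5.61, 4.95 and 5.17 CPM, a difference of -0.47 ± 0.13. Plk2, a kinase induced by p53, was higher with AOS, at 22.2, 15.7 and 19.1 CPM against 25.2, 30.1 and 28.3 CPM, a difference of 0.55 ± 0.20. Tpcn1, a channel of endolysosomes, was higher by 0.21 ± 0.09, whereas the difference of AOS alone from control was -0.65 ± 0.09. With busulfan alone Tpcn1 measured 135.5 to 145.9 CPM, inside the control range of 134.4 to 163.6 CPM, and AOS alone lay at 90.53 to 100.7 CPM.

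Over the wider list of 40 p53 targets tested, 22 were higher and 18 lower with AOS, with a median log2 fold change of 0.01, against -0.01 over all genes, and from -0.03, without replicate 1 of both agents, to 0.04, without busulfan replicate 3. Only Cdkn1a and Plk2 had an unadjusted p under 0.05. Fas, a death receptor, measured 4.01, 3.71 and 4.33 CPM against 4.91, 5.66 and 5.97 CPM, without overlap, a difference of 0.46 ± 0.23. Mdm2, the ubiquitin ligase that degrades p53, overlapped at a difference of -0.06 ± 0.09. The summed level of the list ran from 2209 to 2445 CPM with busulfan and from 2169 to 2445 CPM with AOS, against 1478 to 1575 CPM without busulfan.

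**Figure D2:**
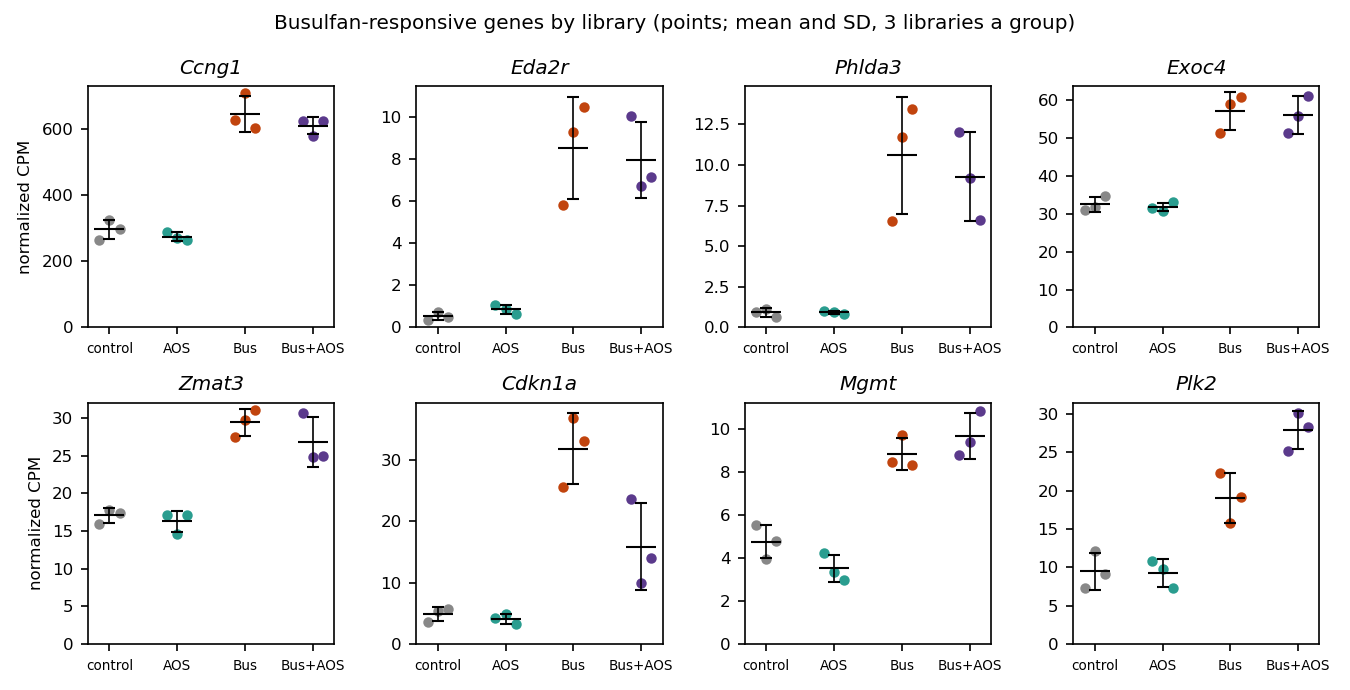
Normalized CPM (y, from 0) of 8 genes with a busulfan response in the 4 groups (x), with 3 libraries a group as points and bars for the mean and SD. Busulfan and busulfan plus AOS overlap for 6 of the genes, while Cdkn1a is lower and Plk2 higher in each library with AOS.

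In the list of crosslink and excision repair, 15 of 36 genes were higher and 21 lower with AOS, with a median of -0.04, which ran from -0.10, without busulfan replicate 1, to -0.01, without busulfan replicate 2. Ogg1, the glycosylase that removes oxidized guanine, measured 3.31, 2.87 and 2.64 CPM with busulfan and 4.64, 6.16 and 7.21 CPM with AOS, a difference of 1.03 ± 0.26 without overlap. Polh, a translesion polymerase, was lower in each AOS library, with a difference of -0.46 ± 0.16, or -0.27 without busulfan replicate 3. Among 30 genes of apoptosis and senescence, 20 were higher with a median of 0.04, which ran from -0.02, without busulfan replicate 1, to 0.10, without busulfan replicate 3. Of 32 proliferation genes 5 were higher and 27 lower, with a median of -0.29. That value rested on busulfan replicate 2, the library with the highest sum at 278 CPM, and without it the median was 0.16.

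The circadian clock is a loop in which ARNTL pairs with CLOCK or NPAS2 and switches on genes at E-box sequences, among them those of their own repressors, the PER, CRY and CIART proteins. The NR1D proteins repress Arntl, Npas2 and Nfil3 through RRE sequences, and DBP, TEF and HLF act on D-box sequences, where NFIL3 opposes them. In mouse kidney this loop drives daily rhythms of salt and water transport. The labels give no time of day at which kidneys were taken.

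The 3 motifs were searched on both strands in the RefSeq promoters of GRCm38.p6, from 250 bases before to 50 bases after each start. The E-box was CACGTG, the D-box TTANGTAA and the RRE the extended core site of the nuclear receptors NR1D and ROR, and no matches of different motifs overlapped. Of the 22 clock genes listed 18 had a promoter in the table, and 5 of these held an E-box, 1 a D-box and 1 an RRE. Counted by promoter, 6 of their 25 promoters held an E-box, 1 a D-box and 1 an RRE. Over all 32817 promoters of the same length 7.15% held the E-box, 2.32% the D-box and 0.384% the RRE. The E-box was in Per1, Cry1, Tef, Bhlhe41 and Ciart, the D-box in Per3 and the RRE in Arntl. Npas2 and Nfil3, low in the same libraries as Arntl, and Nr1d1, Nr1d2 and Dbp, high there, held no match in this window, and the E-box was in Cry1, low there, as well as in Tef and Ciart, high there. The promoters printed here are those of 2 genes low and 3 genes high in these libraries, with the motif in capitals, each as the strand of the gene, 5′ to 3′. Arntl holds an RRE after the second of its listed starts, in the window chr7:113207261-113207560 on the plus strand. Ciart holds 3 E-boxes, at chr3:95882179-95882478 on the minus strand, and Per3 2 D-boxes, at chr4:151044616-151044915 on the minus strand. Cry1 holds an E-box, at chr10:85185005-85185304 on the minus strand. Tef holds an E-box in the windows of both its listed starts, of which the first is printed, at chr15:81802423-81802722 on the plus strand. A match is a description of the letters and not a measured binding site.
Arntl: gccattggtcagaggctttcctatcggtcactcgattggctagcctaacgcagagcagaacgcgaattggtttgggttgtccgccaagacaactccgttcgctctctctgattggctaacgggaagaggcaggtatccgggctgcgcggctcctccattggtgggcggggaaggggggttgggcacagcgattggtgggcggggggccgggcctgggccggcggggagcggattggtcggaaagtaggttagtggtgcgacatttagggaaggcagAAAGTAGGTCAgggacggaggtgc
Cry1: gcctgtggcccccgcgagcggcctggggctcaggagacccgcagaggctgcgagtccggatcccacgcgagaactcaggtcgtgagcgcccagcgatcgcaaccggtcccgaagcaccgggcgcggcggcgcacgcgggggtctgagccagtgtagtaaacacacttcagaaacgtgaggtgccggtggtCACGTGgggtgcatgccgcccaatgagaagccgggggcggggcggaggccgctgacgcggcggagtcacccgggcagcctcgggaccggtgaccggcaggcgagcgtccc
Ciart: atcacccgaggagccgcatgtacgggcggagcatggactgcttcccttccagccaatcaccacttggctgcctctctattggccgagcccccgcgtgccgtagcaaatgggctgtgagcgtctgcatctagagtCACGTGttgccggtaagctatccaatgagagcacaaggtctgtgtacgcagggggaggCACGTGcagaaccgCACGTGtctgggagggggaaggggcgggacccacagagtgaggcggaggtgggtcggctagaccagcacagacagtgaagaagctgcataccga
Per3: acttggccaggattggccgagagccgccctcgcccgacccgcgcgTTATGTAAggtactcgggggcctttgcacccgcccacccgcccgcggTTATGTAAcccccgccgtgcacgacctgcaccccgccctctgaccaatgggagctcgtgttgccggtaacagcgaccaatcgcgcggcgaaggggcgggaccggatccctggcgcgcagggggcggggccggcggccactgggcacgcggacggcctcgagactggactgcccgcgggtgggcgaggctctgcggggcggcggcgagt
Tef: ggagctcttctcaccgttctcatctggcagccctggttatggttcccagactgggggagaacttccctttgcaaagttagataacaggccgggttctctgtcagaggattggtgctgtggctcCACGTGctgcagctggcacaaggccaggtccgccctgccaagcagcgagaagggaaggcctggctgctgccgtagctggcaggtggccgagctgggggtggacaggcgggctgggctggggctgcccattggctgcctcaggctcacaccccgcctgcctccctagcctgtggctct

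Replicates 2 and 3 of busulfan plus AOS were each among the 2 highest or 2 lowest of the 12 libraries for 18 of the 22 clock genes (81.8%), against 1 to 8 of 22 in each other library. Over all genes tested these shares were 39.2% and 37.9%, in a range of 22.5% to 55.7% over libraries. Replicate 1 lay with the other groups. On all libraries edgeR called no clock gene, and DESeq2 called Ciart. The whole list had 13 genes higher and 9 lower with AOS, with a median of 0.21. Of its 22 genes 8 were higher at an unadjusted p under 0.05 in edgeR, against 4.57% of all genes.

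Of the activators, Arntl measured 44.4, 39.7 and 29.9 CPM with busulfan and 44.2, 7.86 and 8.15 CPM with AOS, against 38.0 to 45.2 CPM without busulfan. Replicates 2 and 3 were the lowest libraries of the series and replicate 1 was among the high ones, so that the groups overlapped and the log2 fold change of -0.92 ± 0.53 did not pass. Without replicate 1 it was -2.25 with an adjusted p of 0.0014. Replicate 1 is the library that departs from this order. Passing without it, here and for the clock genes below, is therefore a description and no support. Npas2 had the same order, at 33.4, 30.2 and 23.1 CPM against 29.4, 6.44 and 7.28 CPM, with a difference of -2.08 and an adjusted p of 0.011 without replicate 1. Clock itself moved within narrower limits, at 104, 106 and 98.9 CPM against 106, 64.8 and 72.9 CPM. Nfil3, the repressor at D-boxes, measured 27.7, 23.01 and 19.0 CPM against 39.2, 4.03 and 4.66 CPM, and Cry1, a repressor of the loop, 11.9, 9.30 and 5.17 CPM against 9.97, 3.04 and 3.13 CPM. Nfil3 passed without replicate 1, at -2.42 and an adjusted p of 0.02, and Cry1 did not, at -1.51 and an adjusted p of 0.11.

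The genes on the other side of the loop were high in the same libraries. Ciart measured 0.622, 1.68 and 0.841 CPM with busulfan and 1.80, 16.5 and 9.03 CPM with AOS, and its groups did not overlap, with a difference of 3.11 ± 0.68, a DESeq2 adjusted p of 0.0043 and an adjusted p of 0.017 in edgeR without replicate 1. Dbp, an output factor that acts on D-boxes, measured 2.35, 1.47 and 16.5 CPM against 1.45, 114 and 89.0 CPM, so that busulfan replicate 3 lay between. Tef measured 129, 156 and 146 CPM against 135, 366 and 291 CPM, a difference of 0.87 ± 0.27, and 1.18 with an adjusted p of 0.011 without replicate 1. Per3 measured 3.38, 4.27 and 8.71 CPM against 3.81, 25.6 and 16.6 CPM, and the libraries without busulfan held it at 2.76 to 4.88 CPM. Nr1d1, a repressor of Arntl, measured 11.9, 12.4 and 70.0 CPM against 20.4, 142 and 132 CPM, and its relative Nr1d2 35.5, 39.5 and 103 CPM against 47.9, 177 and 179 CPM. For both, busulfan replicate 3 was the highest library outside replicates 2 and 3 of busulfan plus AOS.

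Not all members followed this order. Per1, which also responds to stress hormones, was highest in busulfan replicate 3 at 64.7 CPM and in replicate 1 of busulfan plus AOS at 55.1 CPM, against 22.01 and 16.2 CPM in replicates 2 and 3, and Per2 measured 23.3, 44.5 and 54.3 CPM against 43.1, 31.4 and 24.1 CPM. Bhlhe41, a repressor at E-boxes, measured 5.04, 6.78 and 5.23 CPM against 7.34, 11.1 and 9.24 CPM, without overlap, a difference of 0.70 ± 0.24. Without replicate 1 of busulfan plus AOS, 26 of 14708 genes were called (0.177%), and 5 of the 26 were members of the clock list of 22 genes. These were Arntl, Npas2, Tef, Ciart and Nfil3. DESeq2 on all libraries also called 5 of the 26.

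**Figure D3:**
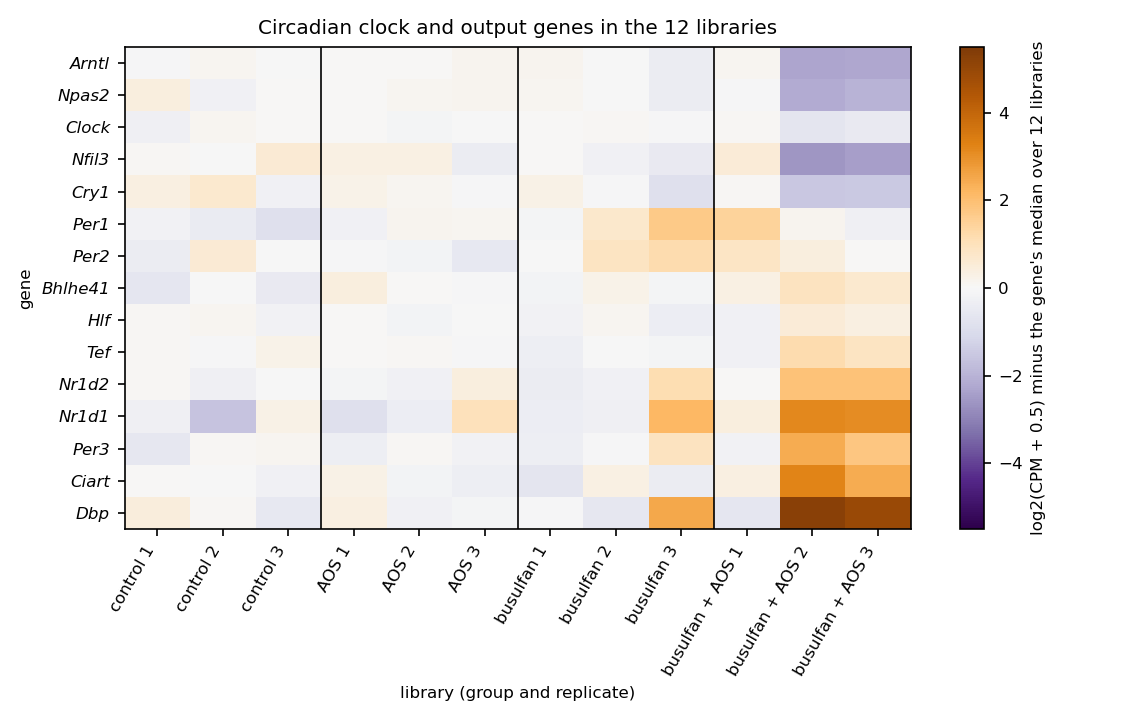
Level of 15 clock and clock output genes (rows) in the 12 libraries (columns, by group), coloured by log2(CPM + 0.5) minus the gene's median over the 12 libraries. Replicates 2 and 3 of busulfan plus AOS are low for Arntl, Npas2, Nfil3 and Cry1 and high for Tef, Nr1d1, Nr1d2, Per3, Ciart and Dbp, and replicate 1 looks like the other groups.

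Urothelium lines the renal pelvis, and its umbrella cells carry uroplakins. Of 9 urothelial genes tested 7 were lower with AOS, at a median of -1.99, and edgeR called none. The median was -1.22 without busulfan replicate 2, -0.63 on log2(FPKM + 1) and 0.0035 with the filter at 5 CPM. The groups did not overlap for 4, all lower, against 4.19% of all genes. Members of low level, such as Sprr2a1, pass the filter on low counts through the busulfan libraries where they are high. A lower value with AOS is then partly built in, so that the count, the median and this share are descriptions. Upk1b, uroplakin 1b, measured 3.18, 5.25 and 1.26 CPM with busulfan and 1.11, 0.425 and 0.364 CPM with AOS, a difference of -2.33 ± 0.56. Sprr2a1, a precursor of the cornified envelope on chromosome 3 from 92215835 to 92222491, measured 2.28, 2.87 and 1.08 CPM against 0.138, 0.142 and 0.146 CPM, a difference of -3.79 ± 0.64 that rests on 2 reads or fewer in each library with both agents. Each AOS value was under the busulfan values, yet AOS alone, at 0.484 to 0.704 CPM, was above control, at 0 to 0.145 CPM, and near-identical Sprr2a genes may share the reads.

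Trp63, a transcription factor of basal epithelial cells, and Upk3b, a uroplakin also known from mesothelium, were the other members without overlap, at differences of -1.19 ± 0.50 and -0.60 ± 0.56. Upk1a, the partner of another uroplakin, measured 3.31, 6.36 and 0.781 CPM against 1.38, 0.566 and 0.655 CPM, and Psca, a surface antigen of urothelium, 5.11, 4.83 and 0.721 CPM against 1.32, 0.495 and 0.0728 CPM, both with an overlap through busulfan replicate 3. Sptssb, a small subunit of serine palmitoyltransferase and no member of the list, had the same order, at 2.21, 6.85 and 0.841 CPM against 0.277, 0.0708 and 0.0728 CPM, a difference of -4.46 ± 0.92. AOS alone was above control for Psca, by 3.14 ± 0.91, and for Sptssb, by 4.10 ± 1.12. Ly6d, a surface protein of squamous and some other epithelia, measured 0.829, 3.50 and 66.7 CPM against 0.138, 0.212 and 0.437 CPM, and the difference of -6.46 ± 1.51 was -3.01 without busulfan replicate 3, the library with adrenal transcripts. The summed level of the list was 32.3, 45.1 and 19.4 CPM with busulfan and 18.9, 12.6 and 14.5 CPM with AOS, and 10.5 to 22.8 CPM in the libraries without busulfan.

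Markers of the tubule after the proximal segment leaned up with AOS. In the loop of Henle and distal tubule, 20 of 20 genes tested were higher, at a median of 0.20, against 47.75% of all genes. None passed the test, 3 had an unadjusted p under 0.05, and 16 of 20 were higher without replicate 1 of busulfan plus AOS. Egf, made by the distal tubule, measured 1397, 1002 and 959 CPM with busulfan and 1726, 1446 and 1387 CPM with AOS, a difference of 0.44 ± 0.15. Busulfan replicate 1 overlapped the AOS group for Egf by a small step. Umod, uromodulin of the thick limb, measured 3040, 1596 and 863 CPM against 3560, 3231 and 2091 CPM, with a spread within busulfan larger than the difference of 0.69 ± 0.38. Cldn16, a tight junction protein for magnesium and calcium, differed by 0.62 ± 0.23, or by 0.41 without busulfan replicate 3.

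In the collecting duct, 11 of 12 principal cell genes were higher, with a median of 0.29. Aqp3, a basolateral water channel, measured 61.4, 57.8 and 46.3 CPM with busulfan and 65.6, 98.5 and 67.6 CPM with AOS, a difference of 0.49 ± 0.16 without overlap. Aqp2, the water channel that vasopressin controls, measured 81.7, 59.7 and 35.9 CPM against 95.2, 128 and 70.8 CPM, a difference of 0.73 ± 0.29 with an overlap. Nr3c2, the mineralocorticoid receptor, and Scnn1b, a subunit of the epithelial sodium channel, were higher in each AOS library, by 0.26 ± 0.11 and 0.30 ± 0.14. Of 14 intercalated cell genes, which handle acid and base, 12 were higher, with a median of 0.16. Busulfan replicate 3, with its adrenal tissue, had the lowest summed level of loop and distal tubule genes, at 5863 CPM against 6698 to 10846 CPM in the other compared libraries. Without it the medians were 0.22 for loop and distal tubule, 0.22 for principal cells and 0.23 for intercalated cells. With other single libraries left out, the median was 0.33 for loop and distal tubule without busulfan replicate 1, 0.18 for principal cells without replicate 1 of both agents, and 0.08 and 0.09 for intercalated cells without busulfan replicate 2 and without replicate 1 of both agents.

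The proximal tubule differed by little. Of 38 genes 25 were higher with a median of 0.06, which was -0.06 without busulfan replicate 3. Slc6a19, a transporter of neutral amino acids, measured 196, 242 and 249 CPM with busulfan and 207, 562 and 394 CPM with AOS, a difference of 0.76 ± 0.28, and replicate 1 with AOS lay inside the busulfan range. Slc34a1, the phosphate cotransporter, overlapped at 5215 to 6885 CPM against 5623 to 6899 CPM. Slc9a3, the sodium-proton exchanger, is on no list here and was named after its values were seen. DESeq2 called it, at 144, 153 and 124 CPM against 172, 226 and 206 CPM, a difference of 0.52 ± 0.12. Kap measured 38388, 33802 and 19006 CPM against 33786, 34395 and 33967 CPM, so that busulfan replicate 3 stood low among these 6 libraries, and the 16 androgen-regulated genes had a median of -0.19, which was 0.03 without busulfan replicate 1 and -0.34 without busulfan replicate 3. Kl, klotho, which serves phosphate control, differed by 0.11 ± 0.08. Of 14 podocyte genes 11 were higher with a median of 0.13, which was 0.04 without replicate 1 of both agents, where 8 were higher, 0.03 without busulfan replicate 2 and 0.29 without busulfan replicate 3. Tcf21, a transcription factor of podocytes and stroma, measured 5.46, 5.81 and 6.13 CPM against 9.97, 9.41 and 8.30 CPM, a difference of 0.67 ± 0.25 without overlap. Ren1, renin, was also higher in each AOS library, at 91.1, 107 and 93.0 CPM against 57.2, 81.5 and 81.5 CPM, a difference of 0.40 ± 0.17, and 7 of 9 genes of the renin axis were higher with a median of 0.15, which was 0.06 without busulfan replicate 3 and 0.25 without busulfan replicate 1.

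Of 26 tubular injury genes 15 were higher and 11 lower with AOS, with a median of 0.10, which ran from 0.05, without replicate 3 of both agents, to 0.21, without busulfan replicate 1. Havcr1, the injury molecule KIM-1, measured 4.77, 3.29 and 2.46 CPM with busulfan and 3.53, 4.39 and 4.88 CPM with AOS, and Lcn2, which codes for NGAL, 1.38, 1.399 and 0.481 CPM against 1.38, 2.90 and 1.31 CPM. Both overlapped, and in control they measured 2.33 to 3.11 and 0.437 to 1.45 CPM. Spp1, osteopontin, differed by 0.02 ± 0.16. Krt8, a keratin of simple epithelia, was the member without overlap, at 85.3, 77.4 and 73.6 CPM against 99.1, 100.2 and 101 CPM, a difference of 0.35 ± 0.09. Krt19 and S100a6 lay on the other side, at -1.27 ± 0.52 and -0.78 ± 0.30, and Cd44, at -1.39 ± 0.62, differed by -0.03 without busulfan replicate 3.

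**Figure D4:**
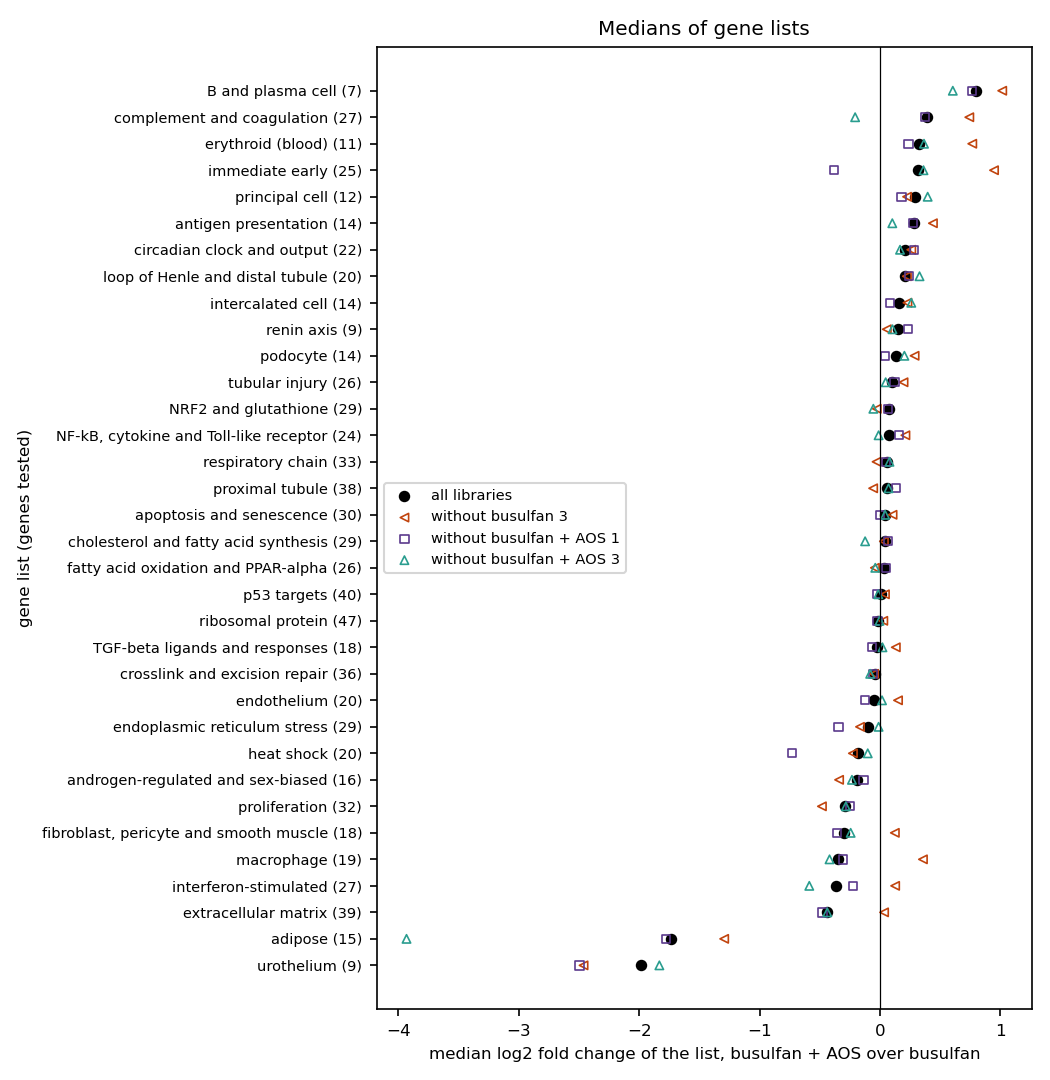
Median log2 fold change of busulfan plus AOS over busulfan (x) for 34 gene lists with at least 5 genes tested (y, number tested in brackets), with all libraries (filled) and without busulfan replicate 3, busulfan plus AOS replicate 1 or busulfan plus AOS replicate 3 (open). The adrenal and hepatocyte lists, at -6.86 and 6.12, are beyond the axis, and the matrix, fibroblast, macrophage and interferon medians cross 0 without busulfan replicate 3.

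Interstitial lists leaned down, and this rested on a single library. Of 39 extracellular matrix genes 34 were lower with AOS, with a median of -0.44, but 23 of 39 were higher without busulfan replicate 3, with a median of 0.03. For 18 genes of fibroblasts, pericytes and smooth muscle the median of -0.30 became 0.12. Col1a1, a chain of collagen I, measured 11.4, 33.6 and 66.4 CPM with busulfan and 22.4, 28.3 and 24.7 CPM with AOS, so that the AOS values lay inside the busulfan range. Col6a1 measured 8.49, 24.7 and 105 CPM against 19.3, 14.9 and 12.7 CPM. Postn, periostin of the fibrotic matrix, measured 2.62, 13.1 and 36.4 CPM against 2.63, 3.54 and 3.13 CPM, a difference of -2.49 ± 0.69 that was -1.34 without busulfan replicate 3. Col4a1, of the basement membrane, was lower without overlap, at 318, 404 and 438 CPM against 304, 299.9 and 297 CPM, a difference of -0.36 ± 0.12, or -0.26 without that library. Col18a1 was higher by 0.45 ± 0.19, or by 0.12 without replicate 3 of busulfan plus AOS. Tgfb1, the fibrogenic ligand, differed by 0.06 ± 0.16, and of 18 genes of its pathway 8 were higher with a median of -0.03, which was 0.13 without busulfan replicate 3 and -0.15 without busulfan replicate 1. Of 20 endothelial genes 8 were higher, with a median of -0.05, and 17 were higher without busulfan replicate 3, with a median of 0.15.

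Busulfan replicate 3 also carried the highest levels of interferon-stimulated genes, with 23 of 27 tested at their maximum over the 12 libraries there, against 19.9% of all genes. The list had 21 of 27 genes lower with AOS and a median of -0.37, which was 0.13 without that library. Ifi27 measured 21.5, 49.0 and 134 CPM with busulfan and 20.7, 21.8 and 31.7 CPM with AOS, and Xaf1, an interferon-induced regulator of apoptosis, 5.39, 8.39 and 20.3 CPM against 3.11, 4.18 and 5.61 CPM. Macrophage genes, with 13 of 19 lower, had a median of -0.35, and of 0.36 without busulfan replicate 3. Of 14 antigen presentation genes 10 were higher with a median of 0.28, which was 0.10 without replicate 3 of both agents, 0.13 without busulfan replicate 1 and 0.44 without busulfan replicate 3. H2-D1, a classical class I gene with near-identical relatives, was lower without overlap, at 300.1, 399 and 330.2 CPM against 127, 259 and 175 CPM, a difference of -0.88 ± 0.35.

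Of 7 B cell and plasma cell genes tested 6 were higher with AOS, with a median of 0.80, and none was called by edgeR. The groups did not overlap for 4, all higher, against 4.2% of all genes. Members of low level can pass the filter through the libraries where they are high, so that this share is a description. Jchain, the joining chain of secreted antibodies, had the highest counts of those described, at 18.7, 22.5 and 30.9 CPM with busulfan and 60.02, 34.8 and 29.9 CPM with AOS, and it overlapped. The members without overlap were low. Cd79b, of the B cell receptor, measured 0.207, 0.140 and 0.180 CPM with busulfan and 0.346, 0.708 and 1.02 CPM with AOS, a difference of 1.92 ± 0.50. Cd79a, its partner, differed by 0.80 ± 0.43, Mzb1, a chaperone of immunoglobulin secretion, by 0.82 ± 0.37, and Pou2af1, a B cell coactivator, by 0.72 ± 0.69. Busulfan values were the low side for Cd79b, since control lay at 0.364 to 0.654 CPM and AOS alone at 0.623 to 0.959 CPM. The list had a median of 0.77 between AOS alone and control.

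Receptors and signals of innate immunity gave no shared direction, with 15 of 24 genes of NF-kB, cytokine and Toll-like receptor signalling higher and a median of 0.07, which ran from -0.01, without replicate 3 of both agents, to 0.21, without busulfan replicate 3. Tnfaip3, an inhibitor of NF-kB, measured 4.35, 3.78 and 5.05 CPM with busulfan and 6.78, 7.01 and 6.99 CPM with AOS, a difference of 0.66 ± 0.17 without overlap. Myd88, the adaptor of Toll-like receptors, was lower without overlap, at 14.6, 18.0 and 15.4 CPM against 12.5, 12.2 and 12.5 CPM, a difference of -0.37 ± 0.12, and Irak4, the kinase next to it, by -0.37 ± 0.16. Tlr4, the receptor for endotoxin, overlapped at -0.26 ± 0.29. Of 27 complement and coagulation genes 17 were higher with a median of 0.39, which was -0.21 without replicate 3 of busulfan plus AOS, the library with liver transcripts.

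Replicate 1 of busulfan plus AOS was the highest of the 12 libraries for 15 of 25 immediate early genes, 15 of 29 genes of endoplasmic reticulum stress and 15 of 20 heat shock genes, against 7.55% of all genes. Egr1, a transcription factor that answers growth factors within minutes, measured 1.38, 6.22 and 16.4 CPM with busulfan and 327, 30.2 and 21.0 CPM with AOS. The groups did not overlap, and the difference of 3.96 ± 1.11 was 1.66 without replicate 1. Fos, its partner in the early response, measured 0.414, 2.17 and 3.37 CPM against 29.6, 2.83 and 3.57 CPM, a difference of 2.59 ± 0.93, or 0.67 without replicate 1. Ier2, another early gene, measured 4.21, 5.94 and 7.69 CPM against 22.6, 9.20 and 9.32 CPM without overlap. The median of the early list changed from 0.31 to -0.38 without replicate 1.

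Chaperones were spread widest among the libraries with AOS. Hsph1, a heat shock protein of the HSP110 family, measured 271, 424 and 285 CPM with busulfan and 528, 121 and 124 CPM with AOS, so that the AOS libraries held both ends of the range. Hspa5, the chaperone BiP of the endoplasmic reticulum, measured 708, 857 and 746 CPM against 1112, 449 and 591 CPM. Without replicate 1, 1 of 20 heat shock genes and 1 of 29 endoplasmic reticulum stress genes were higher with AOS, with medians of -0.73 and -0.35. With it the medians were -0.18 and -0.10, and without replicate 2 they were -0.06 and 0.05. Asns, which makes asparagine and is induced by amino acid stress, was lower in each AOS library, at 14.02, 4.48 and 7.27 CPM against 4.22, 4.18 and 3.93 CPM. Hmox1, heme oxygenase 1, measured 67.7, 175 and 80.4 CPM against 146, 34.4 and 35.7 CPM.

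NRF2 is the transcription factor of the antioxidant response. Of 29 genes of NRF2 and glutathione 18 were higher with AOS, with a median of 0.07. Without busulfan replicate 3 it was 14 of 29 with a median of -0.03, and without replicate 3 of both agents the median was -0.06. Nfe2l2, which codes for NRF2, differed by 0.08 ± 0.13 and Nqo1, a classical target, by 0.11 ± 0.16. Txn1, thioredoxin, was lower without overlap, at 102, 149 and 172 CPM against 92.5, 89.8 and 90.5 CPM, a difference of -0.64 ± 0.23. G6pdx, which supplies NADPH, measured 45.2, 38.8 and 66.4 CPM against 37.2, 31.7 and 37.1 CPM, a difference of -0.51 ± 0.16, or -0.25 without busulfan replicate 3. Ephx1, an epoxide hydrolase that did not pass the test for busulfan, overlapped at 0.06 ± 0.34.

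In energy metabolism, 31 of 33 respiratory chain genes were higher by small steps, with a median of 0.06, and 11 of 33 were higher without busulfan replicate 3, with a median of -0.03. Of 47 ribosomal protein genes 20 were higher with a median of -0.02, which was 0.03 without busulfan replicate 3. Of 26 genes of fatty acid oxidation and PPAR-alpha 15 were higher with a median of 0.03, which was -0.04 without replicate 3 of either group. Cyp4a31, an omega-hydroxylase of fatty acids with close paralogs, measured 78.2, 73.6 and 38.9 CPM with busulfan and 178, 85.3 and 153 CPM with AOS, a difference of 1.13 ± 0.36 without overlap. Control, at 85.3 to 194 CPM, covered the AOS values, and the difference of AOS alone from control was -0.96 ± 0.36. Of 29 genes of cholesterol and fatty acid synthesis 17 were higher with a median of 0.04, which was -0.12 without replicate 3 of both agents and 0.17 without replicate 2. Stard4, a carrier of cholesterol, was higher without overlap, by 0.68 ± 0.23, and Fasn, fatty acid synthase, which fat cells also express, differed by -1.35 ± 0.41.

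Transcripts of other tissues separated single libraries. Adipose markers summed to 1062, 1968 and 3125 CPM with busulfan and 826, 996 and 1988 CPM with AOS, and 14 of 15 genes tested were lower, at a median of -1.74, which was -1.29 without busulfan replicate 3 and -3.93 without replicate 3 of both agents. Over all genes tested 47.75% were higher. Members of low level, such as Plin1, can pass the filter through the busulfan libraries where they are high. A lower value with AOS is then partly built in, so that the count and the median are descriptions. Fabp4, a fatty acid carrier of fat cells and capillaries, measured 24.7, 183 and 296 CPM against 22.3, 33.0 and 19.1 CPM, and Fasn 88.7, 228 and 374 CPM against 79.7, 73.8 and 118 CPM. Plin1, which coats lipid droplets, measured 0, 10.98 and 30.2 CPM against 0, 0.566 and 0.0728 CPM. Busulfan replicates 2 and 3 were high in all of these and replicate 1 was not. The sum of adrenal markers was 12588 CPM in busulfan replicate 3, and it was 57.4 to 68.3 CPM elsewhere among the 6 libraries, with Star, which carries cholesterol for steroid synthesis, at 2950 CPM there. The sum of hepatocyte markers was 22376 CPM in the third library of busulfan plus AOS, and it was 39.3 to 232 CPM elsewhere, with Alb, albumin, at 10077 CPM, and the list's median of 6.12 was 0.56 without that library. Hbb-bs, a beta globin with near-identical copies, measured 0.691, 0 and 0.0601 CPM against 175, 11.3 and 2.69 CPM, while the summed erythroid markers overlapped, at 607 to 1198 CPM against 999 to 1286 CPM. The part of these tissues in the other differences was not tested beyond the values without those libraries.

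**Figure D5:**
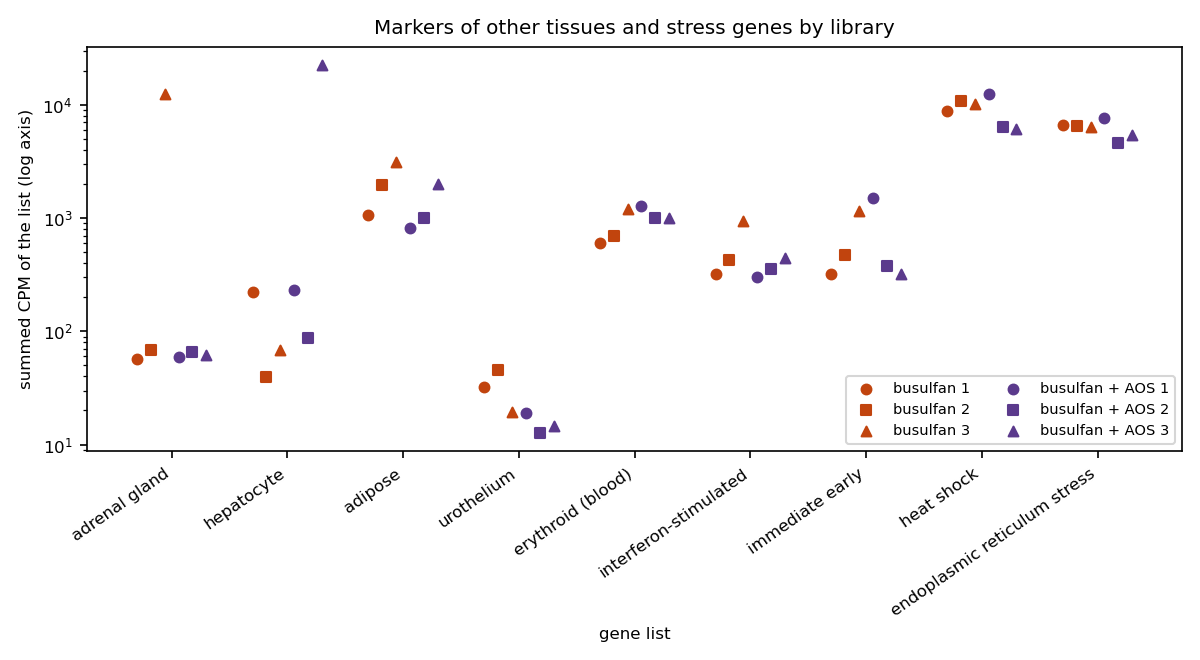
Summed CPM (y, log axis) of 9 gene lists (x) in the 6 compared libraries, orange for busulfan and purple for busulfan plus AOS, with a marker shape for each replicate. Busulfan replicate 3 stands high for adrenal gland at 12588 CPM, replicate 3 of busulfan plus AOS for hepatocyte at 22376 CPM, and urothelium sums to 19.4 to 45.1 CPM with busulfan and 12.6 to 18.9 CPM with AOS.

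Few T and NK cell, neutrophil, skeletal muscle and exocrine pancreas genes had enough reads, 3, 3, 3 and 1, and none had an adjusted p under 0.5 in edgeR's test. On the length-scaled expression values, taken as FPKM, the same groups gave means of 197 and 182 FPKM for Ccng1, 18.2 and 8.80 FPKM for Cdkn1a and 1.67 and 1.57 FPKM for Eda2r, with busulfan and with AOS added, so that the order of these p53 targets by level was the same in both groups.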

How the data were processed

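RNA of mouse kidney was measured in 12 libraries, 3 in each of 4 groups, grouped by their titles. The authors deposited 1 table of 19261 genes with an estimated count per library, of which 76.8% to 78.8% were whole within 0.005, and beside it an expression value per library. That value is taken as FPKM from its scale, as deposited by the authors. The genome build is mm10, per the submitters' processing notes, while the aligner and counting tool were not given in the sources used here. Decimals mean that reads were shared out between transcripts, so that close paralogs are uncertain, and so are overlapping and antisense genes, since strandedness is not stated. The 8 group means in the table were not used. Positions and promoters are those of RefSeq for GRCm38.p6, counted from 1, with 18164 of 18290 gene identifiers matched.

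In R 4.3.3, edgeR 4.0.16 was run on the rounded counts, with 1 mean per group over all 12 libraries, TMM scaling and edgeR's own expression filter, which left 14428 genes. The model had 8 residual degrees of freedom and a biological coefficient of variation of 26.8%. Tests were two-sided and adjusted over all genes tested within a comparison by Benjamini-Hochberg, with 0.05 as the threshold and intervals at 95%. Overlap means that the ranges of 3 against 3 normalized CPM values meet. A list's sum is in CPM without TMM scaling.

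The members of the comparison and the 40 lists of 916 genes were chosen with earlier results of these data known. Named genes are the 12 of lowest p in each direction with a symbol and at least 1 CPM in the higher group, up to 4 of lowest p in each list, and 29 reference genes. Outside that rule, and after their values were seen, the text names Alb, Cd44, Hspa5, Hsph1, Plin1, Pou2af1, Scnn1b, Slc9a3, Trp63, Upk3b, the other clock genes and those under other observations.

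Alternatives were DESeq2 1.42.0, limma 3.58.1 with voom and on log2(FPKM + 1), 2 other scalings, no filter and a filter at 5 CPM in 3 libraries. Others were the compared groups only, a replicate block, each of the 6 compared libraries left out in turn, and both the adrenal and the hepatocyte library left out. The procedure was tested on simulated data. No library was counted as a duplicate, the least different pair, AOS replicates 1 and 2, differing by 5.95 times the sampling variance.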

Additional observations from a re-analysis of the deposited data

How the results depend on the processing

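The count of calls of 0 was 24 with DESeq2 (16 higher, 8 lower) and 1 (1 higher) without the adrenal and hepatocyte libraries. It ranged from 0 to 26 with single libraries left out (0 to 16 higher, 0 to 10 lower), while 1254 genes at an unadjusted p under 0.05 became 597 with the compared groups only and 919 to 2205 with single libraries left out. With the replicate block 0 genes were called and 996 had an unadjusted p under 0.05. The labels do not say that the replicate numbers pair the libraries. Same-numbered libraries correlated at 0.00242, 0.159 and 0.0271, and the other pairs at -0.195 to 0.116. These values cannot decide whether the numbers pair them, since single libraries held RNA of other tissues.

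Of 122 genes named, 103 kept their direction under each of the 16 settings that gave them a value, and 19 did not. A filter on low counts left some genes without a value in a setting. Except for Col1a1, Col6a1 and Havcr1 these lay within 1 SE of 0, and the cause was not tested. Without the adrenal and hepatocyte libraries the reversed log2 fold changes were 0.17 for Col1a1, 0.046 for Col6a1, 0.15 for Eda2r, -0.023 for Havcr1, -0.081 for Kap, 0.0036 for Mdm2, -0.096 for Nqo1, 0.59 for Per1, 0.14 for Per2, 0.22 for Phlda3, -0.025 for Plcd4, -0.16 for Spp1 and 0.19 for Tlr4. With limma voom the reversed log2 fold changes were -0.012 for Nfe2l2, -0.071 for Plcd4 and -0.14 for Spp1. Inka2 was -0.00087 with DESeq2 and -0.000596 with the filter at 5 CPM. With single libraries left out the values ran from -0.99 to 0.16 for Col1a1, from -0.31 to 0.077 for Eda2r, from -0.25 to 0.58 for Ephx1, from -0.10 to 0.026 for Exoc4, from -0.57 to 0.14 for Hspa5, from -0.24 to 0.41 for Inka2, from -0.084 to 0.37 for Kap, from -0.18 to 0.023 for Mdm2, from -0.12 to 0.17 for Nfe2l2, from -0.084 to 0.31 for Nqo1, from -1.03 to 0.28 for Per1, from -0.44 to 0.022 for Phlda3, from -0.036 to 0.32 for Plcd4, from -0.17 to 0.21 for Spp1, from -0.062 to 0.25 for Tgfb1 and from -0.53 to 0.17 for Tlr4. Over these settings 45 medians of the 40 lists moved by more than their SD between replicates and 594 did not. Depth limits genes under about 1 CPM, and the tests rest on 3 libraries a side.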

Other observations

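Some genes called with DESeq2 or with a library left out are named here after their values were seen. Gm2427, a gene model called by DESeq2 alone (0.166% of genes), measured 0, 0 and 0.180 CPM with busulfan and 1.73, 2.26 and 1.75 CPM with AOS added. Control and AOS alone held it at 1.38 to 4.15 CPM, so that the busulfan libraries were the low side. The gene model BGIG10090_47966 was called without busulfan replicate 3 (adjusted p 0.0155 in edgeR's quasi-likelihood test) and without the adrenal and hepatocyte libraries (adjusted p 0.0462). In the first of these it measured 0 and 0 CPM against 40.6, 19.2 and 42.7 CPM, but busulfan replicate 3 held 33.5 CPM, so that the groups overlapped.

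Cidea and Ucp1, which mark brown fat, had too few libraries with reads for the test on all 12. They were called without busulfan replicate 1, at adjusted p of 0.0187 in edgeR, with 354 and 200 reads for Cidea and 409 and 254 reads for Ucp1 in busulfan replicates 2 and 3, against 0 to 1 reads with AOS added. Busulfan replicate 1 held 0 reads of either gene, close to the libraries with AOS. The genes entered the test through busulfan replicates 2 and 3, where they were high, once the busulfan library without reads was left out. Passing is therefore a description and no support. Adipoq, adiponectin of fat cells, measured 0.0691, 33.9 and 66.5 CPM with busulfan and 0, 3.11 and 0.291 CPM with AOS added.

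DESeq2 also called P3h2, a collagen prolyl hydroxylase, at 57.9, 57.8 and 45.0 CPM against 93.8, 88.6 and 66.8 CPM, and Nlrp6, an inflammasome sensor, at 99.4, 116 and 93.2 CPM against 121, 147 and 159 CPM. It called Prkar2b, a regulatory subunit of protein kinase A, at 10.3, 19.9 and 92.6 CPM against 6.09, 4.46 and 6.62 CPM, where the log2 fold change of -2.84 ± 0.70 in edgeR was -1.40 without busulfan replicate 3.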
